A study of Arabidopsis thaliana with 6 samples.

Results

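The 10 genes described here encode transcription factors of carpels and ovules. They were chosen by locus among the 33554 genes of the deposited tables, with earlier results of these data known. They comprise 3 MADS-box genes (*SHP1*, *SHP2* and *STK*), 2 YABBY genes (*CRC* and *INO*), 4 bHLH genes (*SPT*, *HEC1*, *HEC2* and *HEC3*) and 1 B3 gene (*NGA1*). RNA-seq was performed on dissected shoot apices of *vip3-1* plants, in which a T-DNA insertion disrupts *VIP3*, a subunit gene of the Paf1 complex (Paf1c) that acts with RNA polymerase II during transcription, and of wild-type plants (WT), both in the Col-0 background. All plants were grown in short days at 21°C and then moved to continuous light at 16°C, and flowers older than stage 4 were cut away. Each tube held 30 to 35 apices of the primary inflorescence, and RNA of 2 tubes was combined for each of the 3 libraries per genotype. The methods call these libraries technical triplicates, so p-values refer only to the variation among such pools of plants, and an effect of the genotype cannot be told apart from one of growth or harvest.

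The carpels form the gynoecium in the centre of the flower, where the floral meristem ends its activity. AGAMOUS sets their identity together with SEPALLATA proteins, and the closely related SHATTERPROOF proteins SHP1 and SHP2 and the ovule factor SEEDSTICK (STK) act with it. The carpel margins then give rise to placenta, ovules, septum, transmitting tract, style and stigma, a process that requires SPATULA (SPT), the HECATE proteins and the NGATHA proteins. CRABS CLAW (CRC) acts in carpels and nectaries, and INNER NO OUTER (INO) in the outer integument of the ovule. *CRC*, *SHP1*, *SHP2*, *STK* and *INO* are known mainly from flowers older than those meant to be kept on the apices.

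The 3 MADS-box genes are close paralogs, and a stretch of the MADS-box coding sequence is shown because it bears on how well their reads can be kept apart. In the RefSeq annotation of build TAIR10.1, *SHP1* (AT3G58780) lies on chromosome 3 from 21738160 to 21742517, *SHP2* (AT2G42830) on chromosome 2 from 17820114 to 17824013, and *STK* (AT4G09960) on chromosome 4 from 6236375 to 6241281. The 30 coding bases below come from chr3:21739336-21739365 (plus strand), chr2:17820788-17820817 (plus strand) and chr4:6239239-6239268 (minus strand), and capitals mark bases that differ from *SHP1*.
SHP1: ttctccactcgtggccgtctctatgagtac
SHP2: ttctccactcgAggccgtctctaCgagtac
STK: ttctccactcgtggccgtctctatgaAtac
The window was picked for the most bases that *SHP2* and *STK* share with *SHP1*, so it is not typical of these genes. In it *SHP2* differed from *SHP1* at 2 of the 30 bases and *STK* at 1. Nevertheless, none of the 1418 stretches of 50 bases in the *SHP1* mRNA, and none of the 1092 in the *SHP2* mRNA, occurred in the mRNA of another gene. *STK* shared 137 of 1440 such stretches with AT4G09950, which overlaps it, and *NGA1* shared 14 of 1579 with *NGA2* (AT3G61970). Genes on the opposite strand overlap *SHP2* over 1756 bases, *SHP1* over 1011 bases in all, *STK* over 186 bases and *CRC* over 19 bases. The strand setting of the counting is not given in the sources used here, so reads of these genes and of their antisense partners cannot be told apart within the overlaps. No annotated gene overlaps the other 6 genes.

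The libraries held between 51944079 and 53519921 counts in *vip3-1* and between 50040048 and 69033269 in WT. *VIP3* (AT4G29830) had 5.96, 7.41 and 7.30 CPM in the *vip3-1* libraries, against 40.8, 41.7 and 40.1 CPM in the WT libraries. CPM are the usual scaled counts, relative to library sizes adjusted by the TMM method. WT replicate 3 stood apart. The 12 tapetum markers, genes of the anther layer that feeds the pollen, summed to 72.7, 42.8 and 112 CPM in *vip3-1* replicates 1, 2 and 3 and to 83.5, 94.8 and 1443 CPM in WT replicates 1, 2 and 3. The 11 that could be tested were all over 4-fold higher in WT replicate 3 than in the other WT libraries. The untested marker, the tapetum regulator *MS1*, went the other way and was lowest in WT replicate 3. It had 0.330, 0.118 and 0.548 CPM in *vip3-1* replicates 1, 2 and 3 and 0.113, 0.140 and 0.0570 CPM in WT replicates 1, 2 and 3. The 8 markers of the inflorescence apex and of young flowers, *STM*, *WUS*, *CLV3*, *LFY*, *AP1*, *CAL*, *AP3* and *PI*, were all detected and summed to 969, 944 and 953 CPM in *vip3-1* and to 694, 726 and 670 CPM in WT. Of these, the petal and stamen genes *AP3* and *PI* varied between libraries, with 39.6, 13.7 and 24.2 CPM of *AP3* in *vip3-1* and 35.5, 28.7 and 40.3 CPM in WT. Fold changes of the 9 tested genes among the 10 are given below with and without WT replicate 3.

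Of the 10 genes, 9 passed edgeR's filter on low counts and 1, *SPT*, was called, with an adjusted p-value below the threshold of 0.05. It was higher in *vip3-1* than in WT. The other 8 tested genes did not pass the threshold, *INO* was left out by the filter, and none of the 10 was called lower. In the same edgeR fit 30.7% of all 20690 tested genes were called, 14.6% as higher and 16.1% as lower. At an unadjusted p-value under 0.05 the count was also 1, against 45.1% of all tested genes, and DESeq2 called *SPT* alone, against 39.1% of all tested genes. The median log2 fold change of the 9 genes was 0.44, against -0.018 for all tested genes, with single genes between -0.65 and 0.98. It rested on single libraries, with 0.083 without *vip3-1* replicate 1, 0.11 without WT replicate 2 and 0.63 without WT replicate 3. It was -0.31 over the 5 genes left when at least 10 counts were required in every library. *SPT* was also the only one of the 9 in which every *vip3-1* library lay above every WT library, an arrangement found for 25.3% of all tested genes, and in none did every *vip3-1* library lie below every WT library, as was the case for 27.3% of all tested genes.

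**Figure D1:**
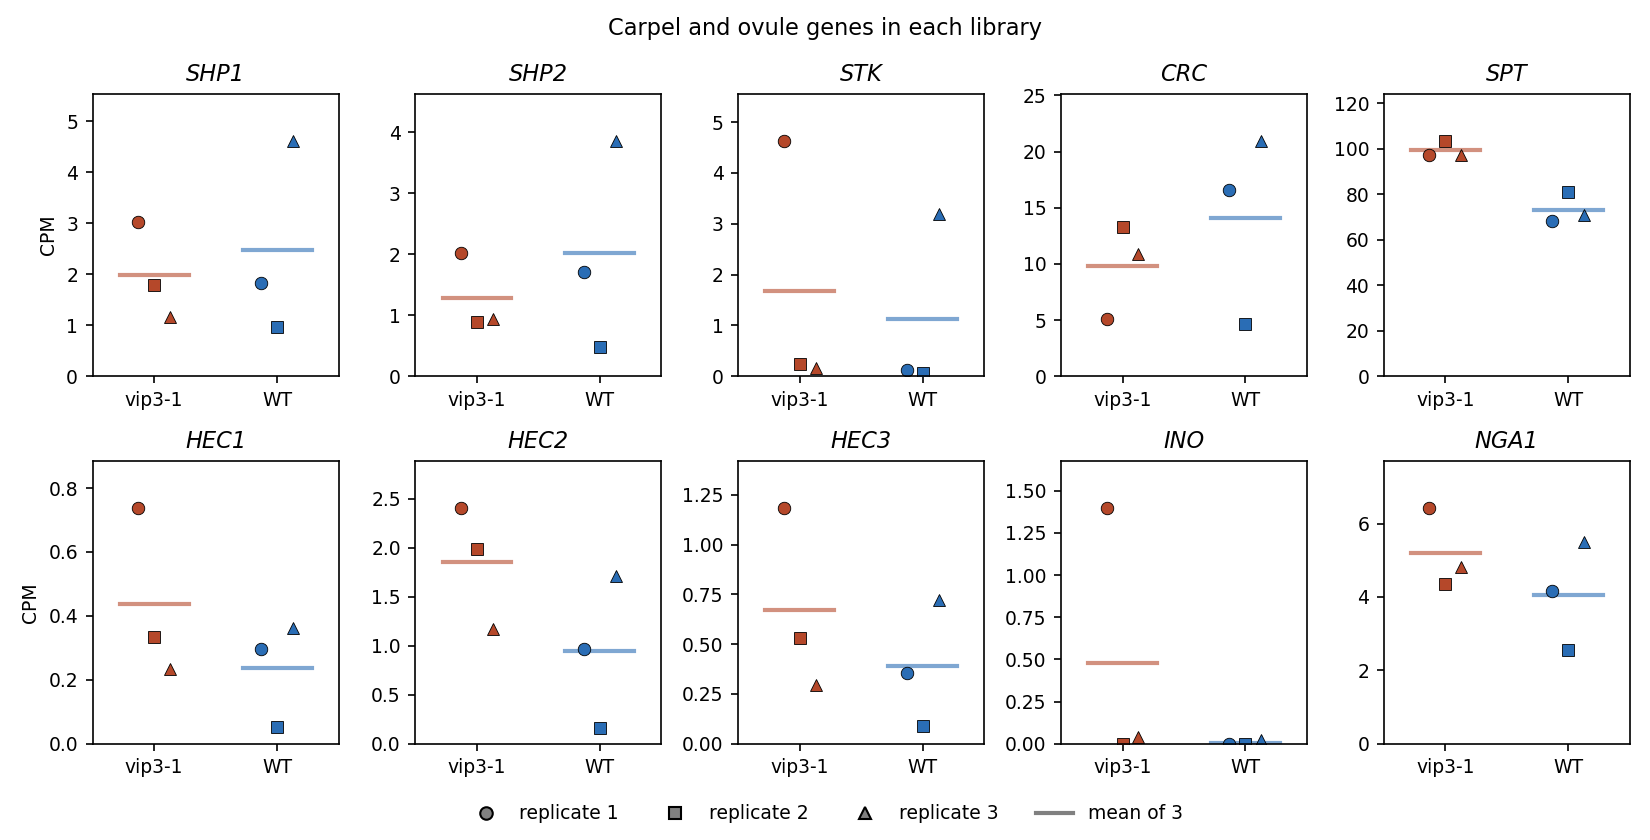
Each panel shows 1 gene, with CPM on a linear vertical axis that starts at 0. Points are single libraries of *vip3-1* (left) and WT (right), with a symbol for each replicate number, and lines are means of 3 libraries. *SPT* is separated between the genotypes, at 97.1 to 103 CPM in *vip3-1* and 68.1 to 80.8 CPM in WT, whereas the other genes overlap.

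*SPT* (AT4G36930) lies on chromosome 4 from 17414083 to 17416386 on the plus strand, has 7 exons, and encodes a bHLH protein that promotes growth of the carpel margin tissues. Its mRNA accumulated to 97.1, 103 and 97.1 CPM in *vip3-1* replicates 1, 2 and 3, against 68.1, 80.8 and 70.6 CPM in WT replicates 1, 2 and 3. The means were 99.2 ± 3.69 CPM in *vip3-1* and 73.2 ± 6.73 CPM in WT (SD, n = 3 libraries each), so that the lowest *vip3-1* library was above the highest WT library. The log2 fold change was 0.44 (standard error 0.082, 95% interval from 0.24 to 0.64, adjusted p = 0.0110 in edgeR's quasi-likelihood test), or 1.36-fold. It was 0.42 without WT replicate 3 (adjusted p = 0.0125 in edgeR's test). The call was lost without *vip3-1* replicate 2, with a log2 fold change of 0.40 and an adjusted p of 0.0531 in edgeR's test. Of the 8 apex markers, 5 (*STM*, *WUS*, *CLV3*, *LFY* and *AP1*) were also called higher in *vip3-1*, against 14.6% of all tested genes. *CAL* (log2 fold change 0.15), *PI* (0.38) and *AP3* (-0.43) were not called. In bulk samples more cells of a type and more RNA per cell cannot be told apart, and the part of these cells in the change of *SPT* was not tested.

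*SPT* was also the most abundant of the 10 genes per transcript length. On the FPKM scale (fragments per kilobase of transcript, scaled to the mapped fragments) it averaged 72.7 ± 4.95 in *vip3-1* and 53.3 ± 6.28 in WT (SD, n = 3 each). *CRC* had 12.6 ± 6.53 FPKM in *vip3-1* and 17.0 ± 10.8 FPKM in WT, and *NGA1* had 3.94 ± 0.777 FPKM in *vip3-1* and 3.04 ± 1.10 FPKM in WT. The lowest *SPT* library (47.6 FPKM) was above the highest *CRC* library (27.7 FPKM), and the lowest *CRC* library (5.25 FPKM) above the highest *NGA1* library (4.81 FPKM). The other 7 genes had mean levels at or below 2.52 FPKM in *vip3-1* and 2.36 FPKM in WT. *STK* reached 7.11 FPKM in *vip3-1* replicate 1, above *CRC* (5.25 FPKM) and *NGA1* (4.81 FPKM) in that library, and *SHP1* reached 4.48 FPKM in WT replicate 3, within the range of *NGA1*. The range of *STK* thus overlapped that of *CRC*, and the range of *SHP1* that of *NGA1*. Apart from *CRC* lying above *NGA1*, no order is given among the genes other than *SPT*. The region before the *SPT* start is shown because it was the only one of the 10 to hold a G-box, the letters CACGTG, a palindrome that reads alike on both strands and is bound by many bHLH proteins. It lies 187 bases before the annotated start, at chr4:17413886-17413911 of TAIR10.1 on the plus strand, with the G-box in capitals.
SPT: tagtgtgtctCACGTGcgacgaggaa
Such a G-box was present in the 250 bases before 6.49% of 27443 protein-coding genes. The looser E-box, CANNTG, which includes the G-box, was found before 8 of the 10 genes and before 55.3% of all genes. A CArG box, the motif of MADS-domain proteins, was found before 2.52% of all genes and before none of the 10 in this window. These matches describe the sequence only.

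*SHP1* and *SHP2*, which act redundantly in carpels and in the margins of the fruit valves, were low in every library. *SHP1* had 3.03, 1.79 and 1.15 CPM in *vip3-1* replicates 1, 2 and 3 and 1.83, 0.965 and 4.62 CPM in WT replicates 1, 2 and 3. *SHP2* had 2.02, 0.887 and 0.939 CPM in the *vip3-1* libraries and 1.71, 0.474 and 3.86 CPM in the WT libraries. For both genes WT replicate 3 was highest and WT replicate 2 lowest of all 6 libraries, and the *vip3-1* values lay between them. The log2 fold change of *SHP1* was -0.31 (standard error 0.62, 95% interval from -1.79 to 1.17, adjusted p = 0.719 in edgeR's test) and that of *SHP2* was -0.65 (standard error 0.73, 95% interval from -2.40 to 1.09, adjusted p = 0.514 in edgeR's test). Without WT replicate 3 both estimates had the opposite sign, with 0.51 for *SHP1* and 0.22 for *SHP2*, and without *vip3-1* replicate 1 they were -0.75 and -1.15. None of these passed the threshold. The long non-coding RNA gene AT2G42835, which covers 45.0% of *SHP2* on the opposite strand, had 70, 49 and 34 counts in *vip3-1* replicates 1, 2 and 3 and 56, 24 and 106 counts in WT replicates 1, 2 and 3. It too was highest in WT replicate 3 and lowest in WT replicate 2.

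*STK*, which specifies ovule identity, differed more between libraries of one genotype than between genotypes. Its estimated counts were 239, 12 and 8 in *vip3-1* replicates 1, 2 and 3 and 9, 4 and 168 in WT replicates 1, 2 and 3. The corresponding values were 4.64, 0.236 and 0.157 CPM in *vip3-1* and 0.128, 0.0702 and 3.19 CPM in WT, so 1 library of each genotype was high and the other 4 held between 4 and 12 counts. *vip3-1* replicate 1 was 23.6-fold above the mean of the other *vip3-1* libraries, and WT replicate 3 was 32.3-fold above the mean of the other WT libraries. The estimated log2 fold change was 0.58 (standard error 1.69, 95% interval from -3.46 to 4.62, adjusted p = 0.808 in edgeR's test). It was 4.03 without WT replicate 3 (adjusted p = 0.112), -2.52 without *vip3-1* replicate 1 (adjusted p = 0.344), and 0.95 without either (adjusted p = 0.290), all in edgeR's test. The span between the highest and the lowest library, on a log2 CPM scale (prior count 2), was 4.60 in *vip3-1* and 4.93 in WT. Among all tested genes, 0.0290% had a wider span in *vip3-1* and 0.459% in WT. The gene AT4G09950 overlaps the end of *STK* on the opposite strand. It had 222, 210 and 284 counts in *vip3-1* and 162, 108 and 72 counts in WT. Its count in *vip3-1* replicate 1 lay between those of the other *vip3-1* libraries, and WT replicate 3 was its lowest library. The part of reads from this overlap in the *STK* counts was not tested.

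*INO*, whose expression is restricted to the outer integument, had 72, 0 and 2 counts in *vip3-1* replicates 1, 2 and 3 and 0, 0 and 1 counts in WT replicates 1, 2 and 3. Apart from *vip3-1* replicate 1, the libraries were thus at or below a limit of 3 counts, which was taken as not detectable. The 72 counts of *vip3-1* replicate 1 correspond to 1.40 CPM (exact 95% Poisson interval from 1.09 to 1.76 CPM, which covers counting error only). At the lower limit of this interval it is at least 18.5-fold higher than the 0.0591 CPM that 3 counts amount to in *vip3-1* replicate 2, the highest such limit among the other 5 libraries. WT replicate 3, in which *STK* was likewise high, had 1 count of *INO*. *INO* (AT1G23420) lies on chromosome 1 from 8317297 to 8319491 and did not pass the filter on low counts, and no fold change between the genotypes is given.

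*CRC* (AT1G69180, chromosome 1, 26007350 to 26009141, minus strand), the carpel and nectary factor, showed another order of libraries. It had 5.12, 13.3 and 10.9 CPM in *vip3-1* replicates 1, 2 and 3 and 16.6, 4.65 and 21.0 CPM in WT replicates 1, 2 and 3. *vip3-1* replicate 1 was thus the lowest *vip3-1* library for *CRC*, at 0.424 times the mean of the other *vip3-1* libraries, while it was the highest for *SHP1*, *SHP2*, *STK* and *INO*. The log2 fold change was -0.53 (standard error 0.57, 95% interval from -1.90 to 0.85, adjusted p = 0.501 in edgeR's test), and -0.13 without WT replicate 3 (adjusted p = 0.876 in edgeR's test).

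The 3 *HEC* genes, which encode bHLH proteins of transmitting tract and stigma, were highest and lowest in the same libraries. *HEC2* (AT3G50330), the most abundant, had 2.41, 1.99 and 1.17 CPM in *vip3-1* replicates 1, 2 and 3, against 0.963, 0.158 and 1.71 CPM in WT replicates 1, 2 and 3. *HEC3* (AT5G09750) had 1.18, 0.532 and 0.294 CPM in *vip3-1*, against 0.354, 0.0878 and 0.723 CPM in WT. *HEC1* (AT5G67060) had 0.737, 0.335 and 0.235 CPM in *vip3-1*, against 0.298, 0.0527 and 0.361 CPM in WT. For all 3 genes *vip3-1* replicate 1 was the highest of the 6 libraries and WT replicate 2, with 3, 9 and 5 counts for *HEC1*, *HEC2* and *HEC3*, the lowest. Their log2 fold changes were 0.87 for *HEC1*, 0.98 for *HEC2* and 0.79 for *HEC3*, with standard errors of 0.73, 0.74 and 0.79 and adjusted p-values of 0.382, 0.338 and 0.465 in edgeR's test. The 95% intervals ran from -0.87 to 2.61 for *HEC1*, from -0.80 to 2.75 for *HEC2* and from -1.11 to 2.69 for *HEC3*, and therefore include both no change and a change of over 1 on the log2 scale. Without WT replicate 3 the estimates were 1.26, 1.70 and 1.56 (adjusted p = 0.250, 0.105 and 0.164 in edgeR's test). Without WT replicate 2 they were 0.41, 0.48 and 0.32, and without *vip3-1* replicate 1 they were 0.25, 0.73 and 0.083, again not past the threshold in edgeR's test.

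*NGA1* (AT2G46870, chromosome 2, 19260906 to 19262533), a B3 factor of style and stigma, had 6.42, 4.35 and 4.81 CPM in *vip3-1* replicates 1, 2 and 3, against 4.15, 2.54 and 5.50 CPM in WT replicates 1, 2 and 3. It had the same highest and lowest libraries as the *HEC* genes. The log2 fold change was 0.36 (standard error 0.30, 95% interval from -0.37 to 1.08, adjusted p = 0.392 in edgeR's test). It was 0.63 without WT replicate 3 (adjusted p = 0.112) and 0.11 without WT replicate 2 (adjusted p = 0.753), both in edgeR's test.

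**Figure D2:**
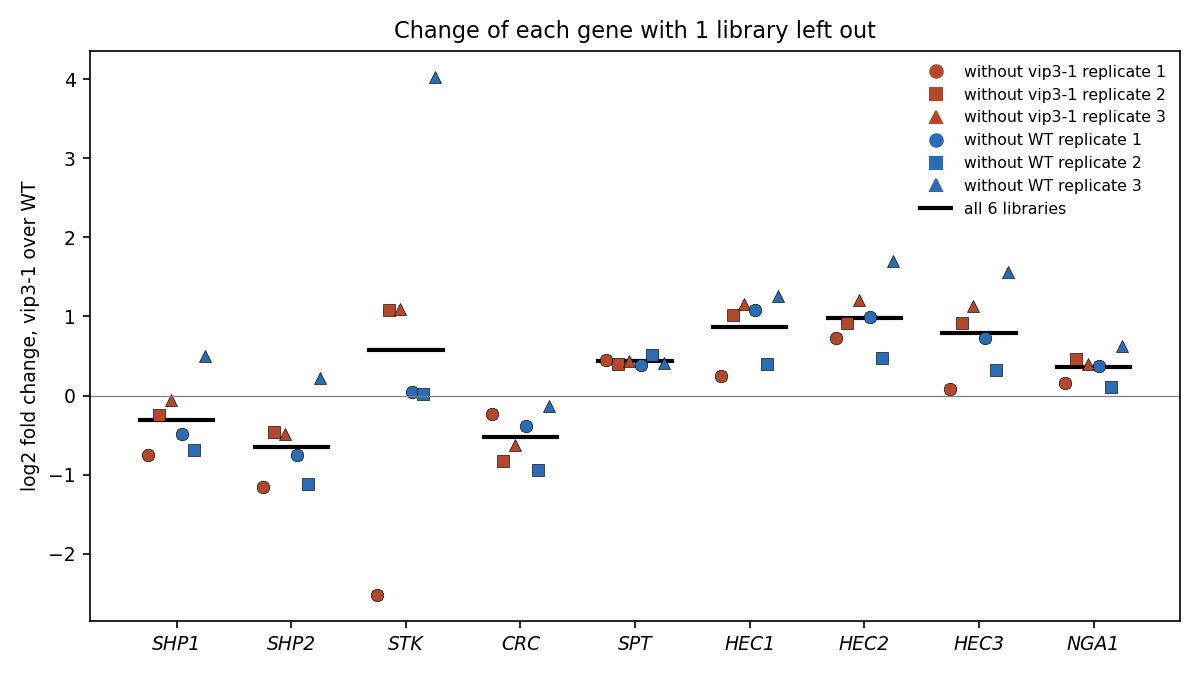
The vertical axis gives log2 fold changes, *vip3-1* over WT, for the 9 genes that could be tested. Black lines are fits with all 6 libraries, and symbols are fits with 1 library left out. *SPT* stayed between 0.39 and 0.52, whereas *STK* ranged from -2.52 to 4.03.

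Across the 9 tested genes, *vip3-1* replicate 1 was the highest *vip3-1* library for 7, all but *CRC* and *SPT*. WT replicate 3 was the highest WT library for 8, all but *SPT*, and WT replicate 2 was the lowest of all 6 libraries for the same 8. Over all 20690 tested genes, *vip3-1* replicate 1 was the highest *vip3-1* library for 5869, WT replicate 3 the highest WT library for 8813, and WT replicate 2 the lowest of the 6 for 2184. The median log2 difference of the 9 genes from the other libraries of the genotype was 1.05 for *vip3-1* replicate 1, -0.16 for *vip3-1* replicate 2 and -0.88 for *vip3-1* replicate 3. It was 0.31 for WT replicate 1, -2.04 for WT replicate 2 and 1.77 for WT replicate 3. The corresponding medians over all tested genes lay between -0.0086 and 0.0086. Some genes of the ovule list were also high in *vip3-1* replicate 1. *BEL1*, a homeodomain factor of the integuments, was 11.3-fold above the mean of the other *vip3-1* libraries there, and WT replicate 3 was 4.53-fold above the mean of the other WT libraries. In *vip3-1* replicate 1, 6 of the 11 tested ovule genes were over 2-fold above the other *vip3-1* libraries, against 1.63% of all tested genes. Tapetum markers did not stand out in *vip3-1* replicate 1, where their sum lay between those of *vip3-1* replicates 2 and 3. The part of flower age or of dissection in these differences was not tested.

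**Figure D3:**
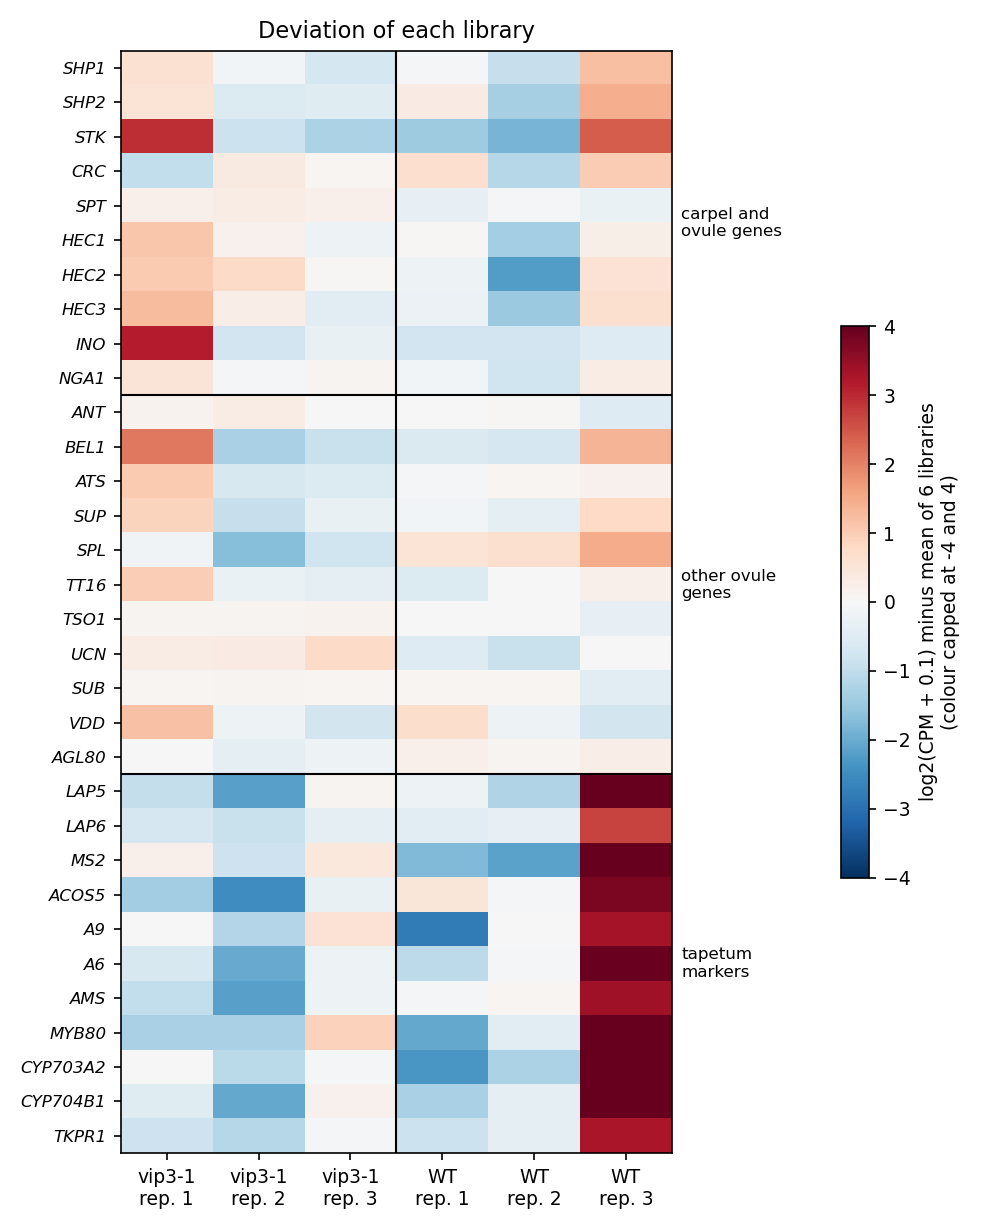
Colours show log2(CPM + 0.1) minus its mean over the 6 libraries, with *vip3-1* libraries left of the line and WT libraries right of it, for the 10 genes, 11 other ovule genes and 11 tapetum markers. *STK*, *INO* and *BEL1* are high in *vip3-1* replicate 1, and *STK* and *BEL1* also in WT replicate 3. The 11 tapetum markers shown are high in WT replicate 3, where the full list of 12 sums to 1443 CPM.

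The wider pathway was examined with a list of 42 other genes of carpel and ovule development, 30 of carpels and 12 of ovules, of which 38 could be tested. Of these, 10 were higher and 1 was lower in *vip3-1* in edgeR's test, or 28.9% called against the 30.7% of all tested genes, and the median log2 fold change was 0.19 against -0.018. The number called was 11, all higher, without WT replicate 3, but it was 4, 4 and 3 without *vip3-1* replicates 1, 2 and 3, and 4 and 6 without WT replicates 1 and 2. The share called among all tested genes was 38.7% without WT replicate 3, 16.0%, 13.2% and 18.1% without *vip3-1* replicates 1, 2 and 3, and 22.1% and 20.7% without WT replicates 1 and 2. *AG* itself, the organ identity gene that acts upstream of *SHP1*, *SHP2*, *STK* and *CRC*, had 19.5, 8.47 and 12.5 CPM in *vip3-1* replicates 1, 2 and 3 and 10.1, 8.04 and 18.0 CPM in WT replicates 1, 2 and 3. Its log2 fold change of 0.16 had a standard error of 0.39 (adjusted p = 0.764 in edgeR's test), and the 2 genotypes overlapped. It was -0.21 without *vip3-1* replicate 1, -0.057 without WT replicate 2 and 0.57 without WT replicate 3, in none of which it was called. Like most of the 9 genes it was highest in *vip3-1* replicate 1 and WT replicate 3 and lowest in WT replicate 2.

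*ALC*, the closest relative of *SPT* and a factor of the valve margin, had 92.6, 102 and 118 CPM in *vip3-1* replicates 1, 2 and 3, against 36.8, 40.4 and 44.1 CPM in WT replicates 1, 2 and 3. The lowest *vip3-1* library was over 2-fold above the highest WT library, and its log2 fold change of 1.36 had a standard error of 0.11 (adjusted p = 0.00126 in edgeR's test). *YUC4*, an auxin synthesis enzyme, had 21.0, 21.3 and 20.0 CPM in *vip3-1*, against 7.66, 10.7 and 11.7 CPM in WT, and rose by 1.05 on the log2 scale. *CUC2*, a boundary factor of the carpel margin meristem, averaged 65.4 ± 4.66 CPM in *vip3-1* and 35.0 ± 6.50 CPM in WT (SD, n = 3 each), and rose by 0.90 on the log2 scale. *ALC* and *CUC2* kept their call in all 15 alternative fits, and *YUC4* in 14.

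The other called genes of the list lost their call in several alternative fits or changed less. *UCN* (log2 fold change 0.93), *SHI* (0.54), *STY1* (0.47), *RPL* (0.36), *CUC1* (0.35) and *LUG* (0.33) were higher in *vip3-1*. *UCN* and *STY1* kept the call in 6, *RPL* in 8 and *SHI* in 9 of the 15 alternative fits. Among them, *STY1* and *SHI* belong to the SHI family, whose members act in style and stigma, and *RPL* is a homeodomain factor of the replum. Another SHI-family gene of the list, *STY2*, was not called (log2 fold change -0.074). The style and stigma genes *NGA2* (-1.09), *NGA3* (0.088) and *NGA4* (-0.55) of the list were not called either. *BEE1*, a bHLH factor of the transmitting tract, was higher by 2.39 on the log2 scale (standard error 0.57, adjusted p = 0.0240 in edgeR's test). Its levels were low, with 0.423 ± 0.244 CPM in *vip3-1* and 0.0803 ± 0.0300 CPM in WT. The WT values rest on 4, 4 and 6 counts in replicates 1, 2 and 3. *BEE1* kept the call in 8 of 14 alternative fits. *SPL*, a factor of sporocyte formation in anthers and ovules, was the 1 gene called lower, with 1.01, 0.276 and 0.607 CPM in *vip3-1* replicates 1, 2 and 3, against 1.67, 1.79 and 3.29 CPM in WT replicates 1, 2 and 3. It fell by 1.83 on the log2 scale (standard error 0.52, adjusted p = 0.0392 in edgeR's test). The call was lost when any library but *vip3-1* replicate 1 was left out, with -1.45 and an adjusted p of 0.0584 in edgeR's test without WT replicate 3.

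**Figure D4:**
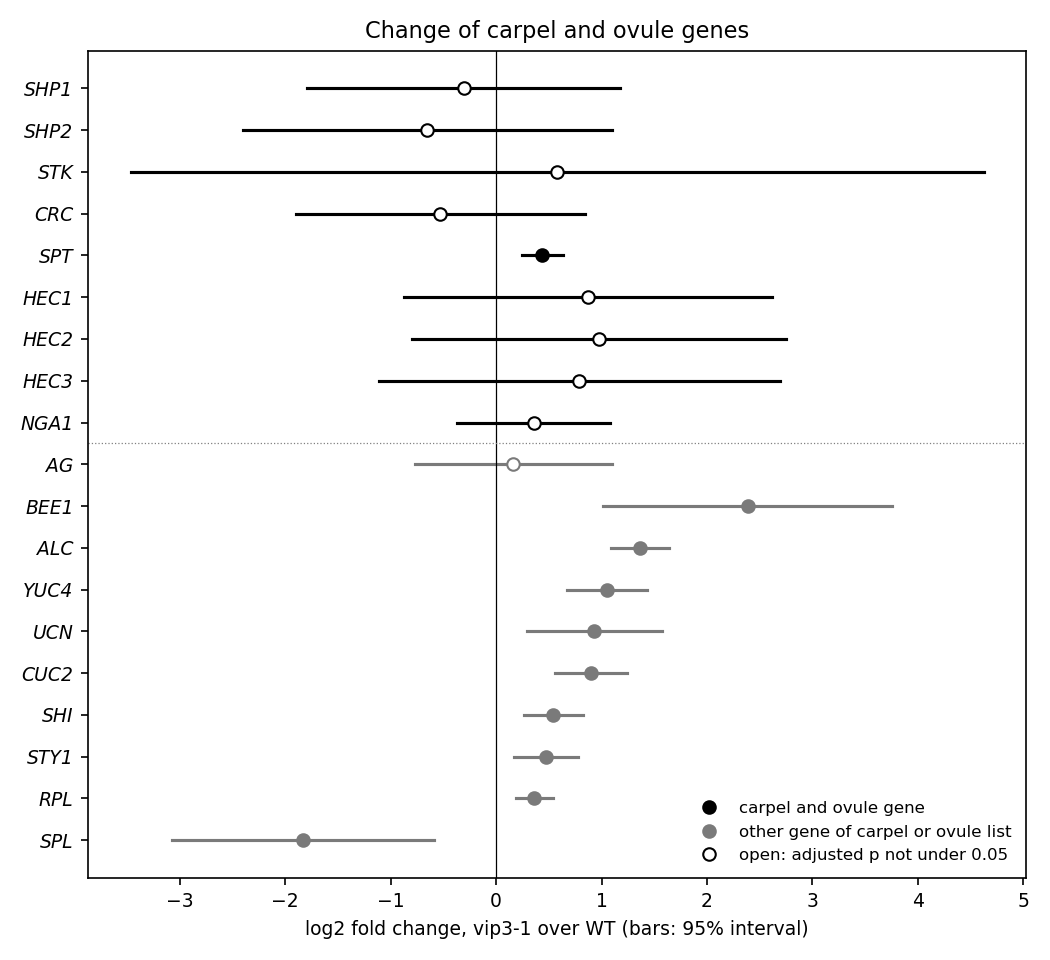
Points are log2 fold changes of *vip3-1* over WT and bars their 95% intervals from edgeR's fit. The 9 tested genes are in black above the dotted line, *AG* and the called genes of the list with the largest changes are in grey below it, and filled points passed an adjusted p-value of 0.05. *SPT* (0.44) and *ALC* (1.36) have narrow intervals, and that of *STK* runs from -3.46 to 4.62.

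The genes of similar expression were looked up among the 16939 tested genes that averaged 1 or more on the log2 CPM scale, by Pearson's r of log2 CPM over the 6 libraries. *emb2004* was most like *SPT* (r = 0.998), and 1436 genes had an r over 0.9 with *SPT*. For the other 8 tested genes between 21 and 53 genes did. The most similar gene was COR314-TM2 for *SHP1* (r = 0.985), AT2G26500 for *STK* (r = 0.988), AT1G16250 for *CRC* (r = 0.969) and SHY2 for *HEC3* (r = 0.970). For *SHP2*, *HEC1*, *HEC2* and *NGA1* it was AT5G66520 (r = 0.980), AT5G17280 (r = 0.980), AT1G09575 (r = 0.970) and AT4G34920 (r = 0.988). The *HEC* genes, *SHP1*, *SHP2* and *STK* averaged less than 1 on this scale and were therefore not candidates. *SHP1* correlated with *SHP2* at r = 0.938 and with *STK* at r = 0.898, and *SHP2* with *STK* at r = 0.798. *HEC1* and *HEC3* correlated with each other at r = 0.976, above the r of SHY2 with *HEC3*. The points share their libraries, and the values are a description only.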

How the data were processed

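Apices of *vip3-1* and WT were compared with 3 libraries each. Per the labels and methods, adapters were removed with Trimmomatic, and TopHat 2.0.6 with Bowtie 2.0.5 aligned the reads to TAIR10. The deposited expected counts are the authors' estimates of fragments per gene, not scaled for library size. Of these, 1.47% were not whole numbers (1 value of *SHP1* among the 10 genes), and all were rounded. The deposited FPKM are the authors' values, made with Cufflinks 2.1.1. The authors' table of their own comparison (fold changes, p-values) was not used.

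Genes were tested with edgeR 4.0.16 in R 4.3.3 (filterByExpr, TMM, genotype as the only factor, quasi-likelihood F-test, Benjamini-Hochberg adjustment over 20690 genes). Each standard error was derived from the log2 fold change and the F statistic. Scripts were tested on simulated data. Alternatives used DESeq2 1.42.0 without its outlier check and independent filtering, limma 3.58.1 on log2(FPKM + 1) and log2(FPKM + 0.1), other filters, library sizes without TMM, each library left out, and the replicate number as a block. Leaving out WT replicate 3 and *vip3-1* replicate 1 together was chosen after seeing the data. The 10 genes and all lists were chosen with earlier results of these data known. Named genes are the 10, *VIP3*, *AG*, up to 8 called list genes with the largest rise and up to 8 with the largest fall, the gene most like each of the 10, and markers where a library stands apart. *CUC1*, *LUG*, *BEL1*, *STY2*, *NGA2*, *NGA3*, *NGA4* and the overlapping genes were named after their values were seen.

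Replicate numbers were read from the labels. Deviations from the genotype means correlated over genes at 0.217, 0.190 and 0.367 for libraries numbered 1, 2 and 3, all over 0.1. The numbers were taken as pairs only in the alternative fit with a block, not in the main fit. This pairing is uncertain, as *vip3-1* replicate 2 correlated with WT replicate 1 at 0.289, above its 0.190 with WT replicate 2. The methods describe no pairs. No library was a copy of another (chi-square per degree of freedom between 22.5 and 138). Exact permutation of 3 against 3 libraries cannot give a p below 0.1. Gene positions and sequences are from RefSeq (TAIR10.1), matched by locus.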

Additional observations from a re-analysis of the deposited data

How the results depend on the processing

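*SPT* was called in 14 of 15 alternative fits and higher in *vip3-1* in all 15, and *VIP3*, *ALC* and *CUC2* were called in all 15. The other 8 tested genes were called in none. Without a filter on low counts all 10 genes, with *INO*, were fitted in edgeR and in limma, and *SPT* alone was called in each. In that edgeR fit 2 of the 10 had an unadjusted p under 0.05. With 1 library left out the number of the 10 genes called was 0 to 1 (0 without *vip3-1* replicate 2, with 1 at an unadjusted p under 0.05 in edgeR's test), that of the other carpel and ovule genes 3 to 11, and that of all genes 2725 to 7998. The log2 fold change then ranged from -0.75 to 0.51 for *SHP1*, -1.15 to 0.22 for *SHP2*, -2.52 to 4.03 for *STK* and -0.21 to 0.57 for *AG*. With WT replicate 3 and *vip3-1* replicate 1 both left out it was 0.073 for *SHP1* and 0.18 for *CRC*. The cause of these changes was not tested. Limma called 3901 genes on log2(FPKM + 1), 4011 on log2(FPKM + 0.1) and 3297 without a filter, and 5, 6 and 2 of the other carpel and ovule genes. Library sizes without TMM gave a median over all genes of -0.11 on the log2 scale, against -0.018 with TMM, and lowered the share of higher genes among those called to 32.2%, against 47.7% with TMM. Then 7 of the other carpel and ovule genes were called, and *SPT* changed by 0.34.

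A fit with a block for the replicate number called 7388 genes, 1 of the 10 genes and 12 of the other carpel and ovule genes. *SPT* changed by 0.44 (adjusted p = 0.00976 in edgeR's test), and the block changed no call among the 9 tested genes, *AG*, *VIP3*, *SPL* and the 8 named list genes that rose. At these depths *HEC1*, *HEC2*, *HEC3* and *STK* rest on under 10 counts in at least 1 library, and *INO* in 5, so these 5 could not be tested when at least 10 counts were required in every library.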
